A study of Mus musculus with 8 samples.

Results

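The 20 genes described here had at least 1 CPM (reads per 1000000 counted reads) in each of Ctrl replicates 1 to 3 and, in both LSD1skm-/- libraries, at most 0.5 times the lowest of those Ctrl values. They were chosen by these 5 libraries, so their levels there describe the choice and support nothing. Of the 27041 genes counted, 11264 reached 1 CPM in each of Ctrl replicates 1 to 3, and 24 met both limits. The rule drops some genes by name, slow-twitch and adipocyte genes among them, and 4 of the 24 left in this way: *Kdm1a*, *Mss51*, *Myh7* and *Tpm3*. The library labelled Ctrl replicate 4 played no part in the choice.

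RNA came from skeletal muscle of 9-week-old C57BL/6J mice, and the study's methods name males and the gastrocnemius. Ctrl mice were homozygous for a floxed *Kdm1a* allele (LSD1 L2/L2). LSD1skm-/- mice carried in addition the HSA-Cre transgene, a recombinase under the human skeletal actin promoter that is active in myofibers and removes exon 1 of *Kdm1a*. Satellite cells, vessels, nerves and fat within the muscle are not targeted, so bulk RNA of LSD1skm-/- muscle includes cells with intact *Kdm1a*. The labels list 4 replicates per group and do not say whether each is a separate animal. Ctrl replicates 1 to 4 gave 36355538, 32616912, 36213735 and 41278769 counted reads, and the first LSD1skm-/- replicates gave 30654828 and 37788092. LSD1skm-/- replicates 3 and 4 were not analysed here.

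*Kdm1a*, the targeted gene, measured 21.8, 21.9 and 26.7 CPM in Ctrl replicates 1 to 3, and 3.07 and 3.47 CPM in LSD1skm-/- replicates 1 and 2. The library labelled Ctrl replicate 4 held 3.88 CPM of *Kdm1a*, from 160 reads. This went against its label and lay near the LSD1skm-/- values. The library keeps its label here and is averaged with no other in the levels below, and every direction drawn from it carries this mismatch.

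LSD1 is a demethylase that removes methyl groups from lysines of histone H3. It works in corepressor complexes such as CoREST, and with some transcription factors it takes part in activation, as described for the glucocorticoid receptor in muscle. The 20 genes have different jobs. *Slc7a2* and *Odc1* serve cationic amino acid uptake and polyamine synthesis. The enzymes *Chac1*, *Amy1*, *Htra4* and *Ogdhl* act on glutathione, starch, proteins and an oxo acid. *H1f4*, *H2bc6*, *H3c15* and *H4c9* encode histones, *Ostn* and *Fgfbp1* encode secreted proteins, and *Cd28*, *Sorcs1*, *Npy1r* and *Gng7* encode receptors or a signaling subunit. GENCODE annotates 18 of the genes as protein coding, and *4931413K12Rik* and *Gm27028* as noncoding. None of the 20 was in any of the 23 pathway and cell type lists set with the design. These lists hold 359 of the 27041 genes counted, so the absence of the 20 from them says nothing particular.

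**Figure D1:**
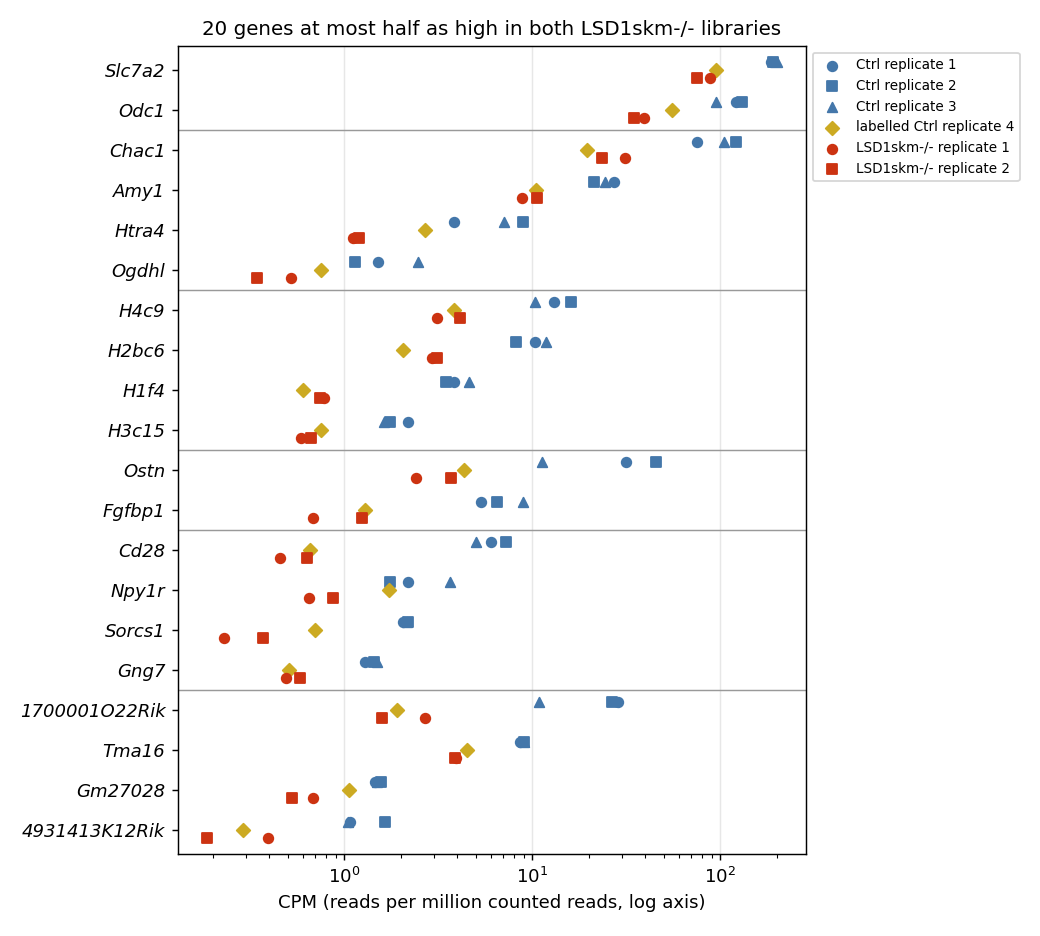
Each symbol is the CPM of a gene in a library, on a log axis, with Ctrl replicates 1 to 3 in blue, the library labelled Ctrl replicate 4 in yellow and LSD1skm-/- replicates 1 and 2 in red. Lines separate the genes by role. The gap between blue and red was set by the rule, and the yellow diamonds of all 20 genes lie below the lowest blue symbol.

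The library labelled Ctrl replicate 4 was outside the rule, but the values of Ctrl replicates 1 to 3 that it is compared with here were used to choose the 20 genes and not the other genes. The contrasts with all genes in this paragraph are therefore partly set by the choice. In the library labelled Ctrl replicate 4, 13 of the 20 were at most 0.5 times the lowest of Ctrl replicates 1 to 3, where 0.24% of the 11264 genes were. All 20 lay below the lowest of Ctrl replicates 1 to 3 there, and 16.5% of the 11264 genes did. Under TMM scaling all 20 did so too, against 33.7% of the 11264 genes. *Cd28*, *H1f4* and *1700001O22Rik* had the lowest ratios to that lowest Ctrl value, 0.130, 0.175 and 0.176. *Npy1r* had the highest, 0.984, followed by *Gm27028* at 0.731 and *Htra4* at 0.698. Genes at 1 CPM or more in Ctrl replicates 1 to 3 had a median log2 ratio of 0.13 to the mean of those libraries in the library labelled Ctrl replicate 4, and the 20 genes had -1.53. Under TMM scaling these medians were -0.01 and -1.67. This is 1 library, so the counts carry no test, and its *Kdm1a* level went against its label.

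**Figure D2:**
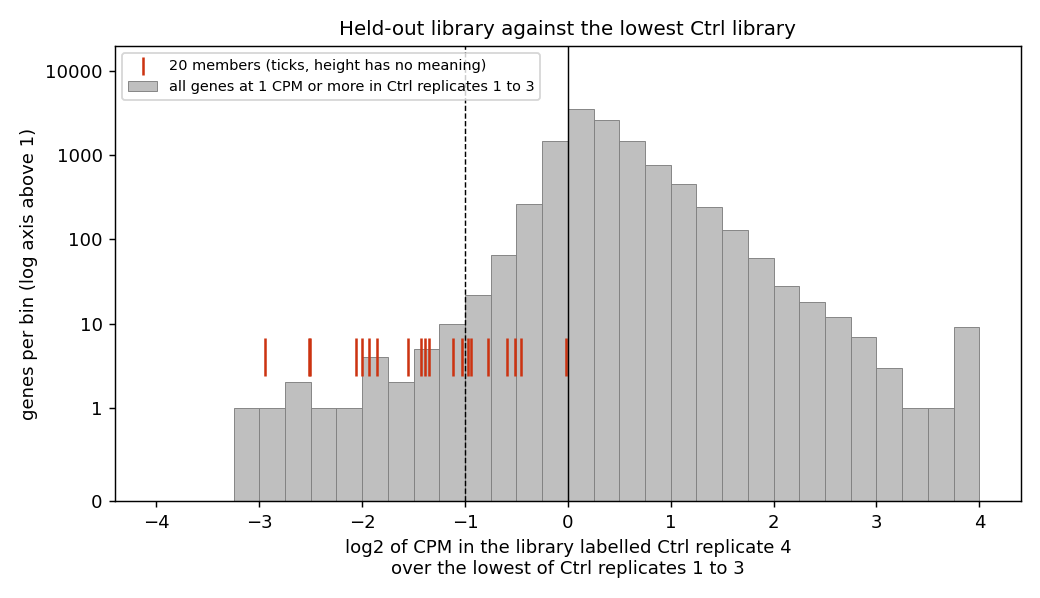
Grey bars count genes by the log2 ratio of CPM in the library labelled Ctrl replicate 4 to the lowest of Ctrl replicates 1 to 3, for the 11264 genes at 1 CPM or more there, with a log axis for the number of genes and ratios above 4 placed in the last bar. Red ticks mark the 20 genes, which run from -2.94 to -0.02, and 13 of them lie at or left of the dashed line at -1.

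Within the 20, the library labelled Ctrl replicate 4 did not take a single position. It was below both LSD1skm-/- libraries for *Chac1*, *H1f4* and *H2bc6*, and at or below the higher of them for 8 genes in all. For the other 12 it stood between the LSD1skm-/- and the Ctrl values. *Htra4* was the 1 gene that still met the limits when this library was counted among the Ctrl libraries. Which Ctrl library set the lowest value mattered as well. Without Ctrl replicate 3 the rule would have taken 137 genes, of which 97 were at most 0.5 times the lowest remaining Ctrl value in the library labelled Ctrl replicate 4. The 20 genes were among them, and 96 of the 117 added ones were under 1 CPM in Ctrl replicate 3. Without LSD1skm-/- replicate 1 the rule would have taken 52 genes, and without replicate 2 it would have taken 33.

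The fit across all genes was read as a description, since the rule used 5 of its 6 libraries. A mean count above 50 over the libraries was reached by 14 of the 20, and *Sorcs1*, *H3c15*, *Gng7*, *Ogdhl*, *Gm27028* and *4931413K12Rik* fell short of it. With 4 Ctrl against 2 LSD1skm-/- libraries, 13 of the 14 had an unadjusted p under 0.05 and a fold below 0.77, against 2.88% of the 11364 genes tested. *H2bc6* was the exception. After Benjamini-Hochberg adjustment of edgeR's quasi-likelihood test, 0 of the 14 were lower at an adjusted p under 0.05, against 0% of all genes, and DESeq2 called 5 of them, against 0.246% of all genes lower. Without the library labelled Ctrl replicate 4, edgeR called all 14, where 1.02% of all genes were called lower and 4.36% higher. That fit holds only the 5 libraries of the rule, so these 14 calls follow from the choice of the genes. The median log2 fold change of the 14 was -1.63 with that library and -1.93 without it, where all tested genes had -0.01 in both fits.

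*Slc7a2* encodes a transporter that brings arginine, lysine and ornithine into the cell. It measured 185, 192 and 201 CPM in Ctrl replicates 1 to 3, 94.4 CPM in the library labelled Ctrl replicate 4, and 87.9 and 75.4 CPM in LSD1skm-/- replicates 1 and 2. The Ctrl values were tight (193 ± 8.14 CPM, SD, n = 3), and the mean of the LSD1skm-/- libraries was 2.36-fold lower. *Slc7a2* was among the 3 genes closest to the limit of the rule, with a ratio of 0.475 between the highest LSD1skm-/- and the lowest Ctrl value. Both LSD1skm-/- values lay below that of the library labelled Ctrl replicate 4, which stood at 0.510 times the lowest Ctrl value.

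*Odc1* encodes ornithine decarboxylase, which makes putrescine and sets the pace of polyamine synthesis. Its level was 121, 129.8 and 95.0 CPM in Ctrl replicates 1 to 3, 55.5 CPM in the library labelled Ctrl replicate 4, and 39.5 and 34.6 CPM in the LSD1skm-/- libraries. The LSD1skm-/- mean was 3.11-fold lower than that of Ctrl replicates 1 to 3, and the groups the rule compared did not overlap, as the rule requires. The log2 fold change was -1.49 ± 0.35 (SE) with all 6 libraries and -1.71 ± 0.15 without the library labelled Ctrl replicate 4.

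Other genes of arginine and polyamine metabolism were taken from a list of 23 written after the 20 genes were known, and 18 of these were at 1 CPM or more in Ctrl replicates 1 to 3. Both LSD1skm-/- libraries lay below every one of Ctrl replicates 1 to 3 for 4 of the 18, *Slc7a2* and *Odc1* included, and above them for 2. The same held for 10.9% and 26.3% of the 11264 genes. *Sms*, which encodes spermine synthase, measured 85.1, 96.3 and 78.9 CPM in Ctrl replicates 1 to 3, 57.8 CPM in the library labelled Ctrl replicate 4, and 48.4 and 50.5 CPM in the LSD1skm-/- libraries. Its pattern had the order of *Odc1*, with a smaller gap. *Slc7a1*, a related cationic amino acid transporter, was not lower, with 2.998, 2.76 and 2.95 CPM in Ctrl replicates 1 to 3, 5.84 CPM in the library labelled Ctrl replicate 4, and 5.25 and 5.58 CPM in the LSD1skm-/- libraries. *Amd1*, which supplies the aminopropyl donor, overlapped between groups, with 276 to 408 CPM in Ctrl replicates 1 to 3 and 340 and 324 CPM in LSD1skm-/- muscle. *Oaz1* and *Oaz2*, the antizymes that send ornithine decarboxylase to degradation, overlapped too. Under TMM scaling 6 of the 18 lay below in both LSD1skm-/- libraries and 1 above, against 19.4% and 18.2% of the 11264 genes.

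**Figure D3:**
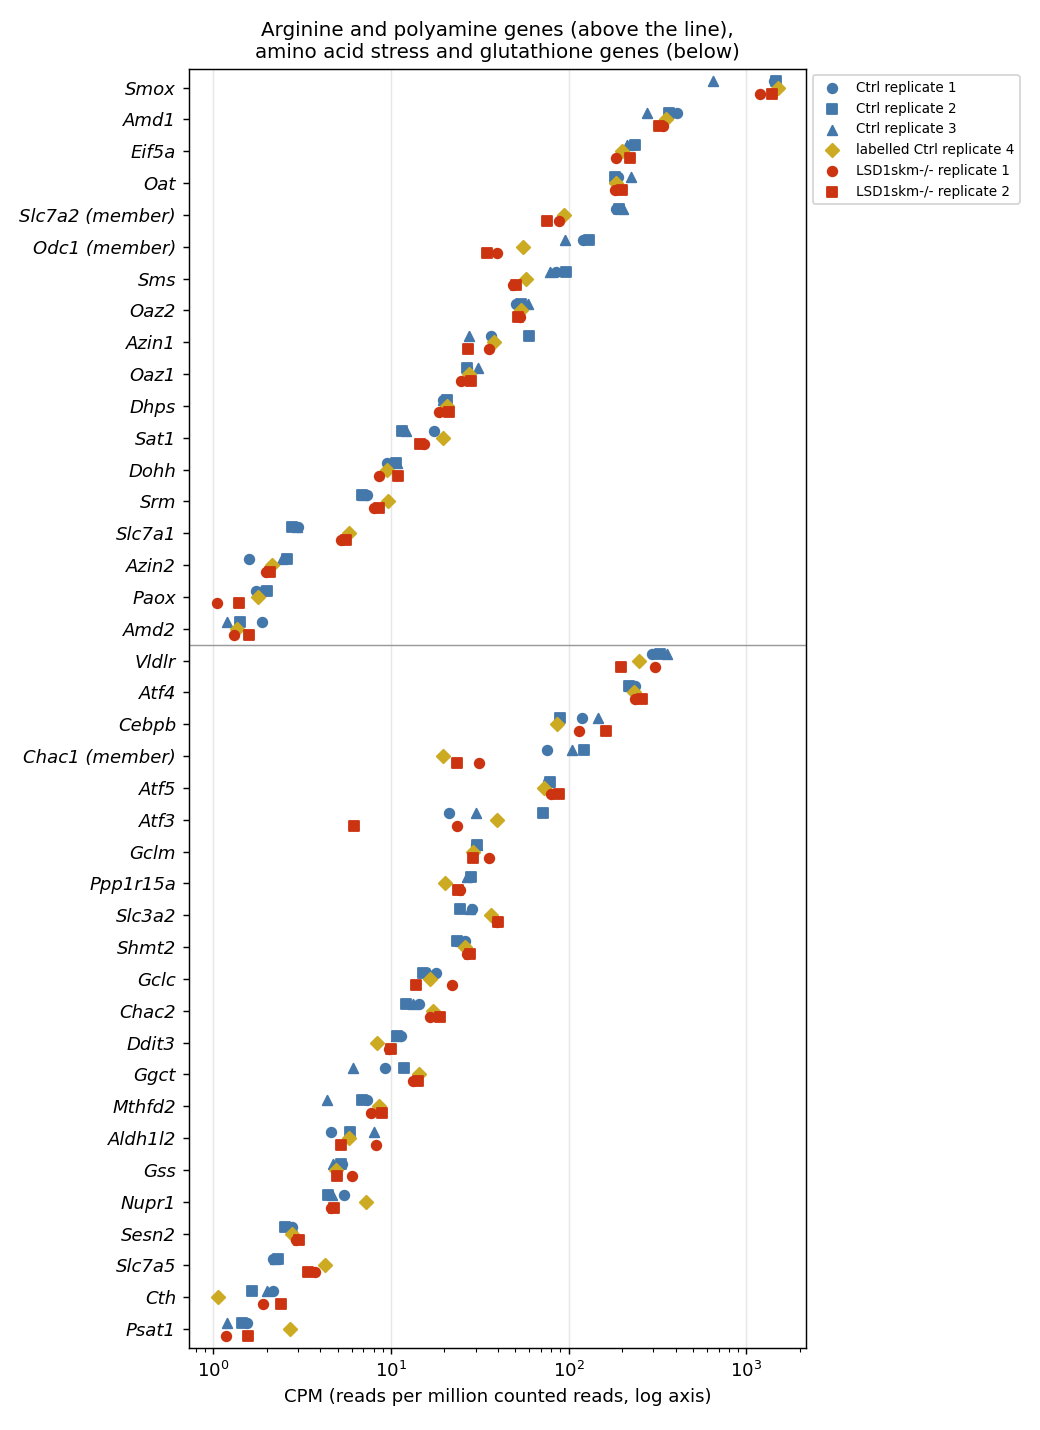
CPM per library on a log axis for genes at 1 CPM or more in Ctrl replicates 1 to 3, with arginine and polyamine genes above the line and amino acid stress and glutathione genes below it. Blue is Ctrl replicates 1 to 3, yellow the library labelled Ctrl replicate 4 and red the LSD1skm-/- replicates. *Slc7a2*, *Odc1* and *Chac1* stand apart by library, while *Smox*, *Atf4* and *Gclm* keep their symbols close or mixed.

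*Chac1* encodes a cyclotransferase that splits glutathione in the cytosol, and it is a known target of ATF4, a factor of the amino acid stress response. *Chac1* measured 75.3, 121.6 and 105 CPM in Ctrl replicates 1 to 3, 19.7 CPM in the library labelled Ctrl replicate 4, and 31.3 and 23.5 CPM in LSD1skm-/- replicates 1 and 2. The lowest of the 6 values was in the library labelled Ctrl replicate 4. The LSD1skm-/- mean was 3.68-fold lower than that of Ctrl replicates 1 to 3.

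The stress genes named beside *Chac1* showed no gap of its size, and *Atf4* and *Chac2* did not share its order. *Atf4* measured 236, 218 and 219 CPM in Ctrl replicates 1 to 3, 234 CPM in the library labelled Ctrl replicate 4, and 238 and 259 CPM in LSD1skm-/- muscle. *Ddit3* measured 11.4, 10.8 and 10.7 CPM, then 8.31 CPM, then 9.72 and 10.1 CPM in the same order of libraries, so it was lowest in the library labelled Ctrl replicate 4, as *Chac1* was, with a small gap. *Chac2*, which splits glutathione more slowly, measured 14.5, 12.1 and 13.3 CPM, then 17.3 CPM, then 16.5 and 18.9 CPM. Of 22 genes of this list at 1 CPM or more, also written after the 20 genes were known, both LSD1skm-/- libraries lay below every one of Ctrl replicates 1 to 3 for 3, *Chac1* among them, and above for 9, against 10.9% and 26.3% of the 11264 genes. TMM scaling gave 4 and 4, against 19.4% and 18.2%, so the count above rested on the scaling.

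*Amy1*, *Htra4* and *Ogdhl* are the other enzymes. *Amy1*, the amylase of salivary gland and liver, measured 27.3, 21.3 and 24.2 CPM in Ctrl replicates 1 to 3, 10.4 CPM in the library labelled Ctrl replicate 4, and 8.78 and 10.6 CPM in the LSD1skm-/- libraries. The library labelled Ctrl replicate 4 lay between the LSD1skm-/- values. *Amy1* overlaps *Rnpc3* on the same strand, so reads of the shared stretch can belong to either. *Rnpc3* measured 8.86, 7.17 and 7.98 CPM in Ctrl replicates 1 to 3, 6.98 CPM in the library labelled Ctrl replicate 4, and 7.80 and 5.72 CPM in LSD1skm-/- muscle, with overlap between the groups.

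*Htra4* encodes a serine protease with a growth factor binding domain. It measured 3.85, 8.92 and 7.04 CPM in Ctrl replicates 1 to 3, 2.69 CPM in the library labelled Ctrl replicate 4, and 1.11 and 1.19 CPM in the LSD1skm-/- libraries. The highest of Ctrl replicates 1 to 3 was 2.32 times the lowest, which was replicate 1. *Htra1*, a protease of the same family, went the other way, with 30.6, 30.0 and 23.4 CPM in Ctrl replicates 1 to 3, 66.9 CPM in the library labelled Ctrl replicate 4, and 68.8 and 77.3 CPM in LSD1skm-/- muscle. *Ogdhl* encodes a relative of the oxoglutarate dehydrogenase of the citric acid cycle. Its values were low, 1.51, 1.13 and 2.46 CPM in Ctrl replicates 1 to 3, 0.751 CPM in the library labelled Ctrl replicate 4, and 0.522 and 0.344 CPM in LSD1skm-/- replicates 1 and 2, the last pair from 16 and 13 reads. *Ogdh*, the muscle enzyme of the cycle, overlapped between the groups, with 821 to 846 CPM in Ctrl replicates 1 to 3 and 926 and 821 CPM in LSD1skm-/- muscle. *Chac2*, *Slc7a1*, *Htra1* and *Ogdh* belong to a list of relatives and partners, written after the 20 genes were known, in which both LSD1skm-/- libraries lay below every one of Ctrl replicates 1 to 3 for 1 of 21 genes and above for 9, against 10.9% and 26.3% of all genes at 1 CPM or more.

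The histone genes *H1f4*, *H2bc6* and *H4c9* lie in the large histone cluster on chromosome 13, and *H3c15* lies in the smaller cluster on chromosome 3. Genes of these clusters are read mostly in S phase, and most of their transcripts end in a stem-loop without a poly(A) tail. The libraries were made from poly(A)-selected RNA, so the counts cover the tailed transcripts.

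*H4c9* measured 13.04, 16.2 and 10.4 CPM in Ctrl replicates 1 to 3, 3.85 CPM in the library labelled Ctrl replicate 4, and 3.13 and 4.13 CPM in LSD1skm-/- replicates 1 and 2. *H2bc6* measured 10.3, 8.22 and 11.9 CPM, then 2.06 CPM, then 2.94 and 3.10 CPM in the same order. For *H1f4*, which encodes a linker histone, the values were 3.85, 3.46 and 4.61 CPM, then 0.606 CPM, then 0.783 and 0.741 CPM. For *H2bc6* and *H1f4* the library labelled Ctrl replicate 4 was the lowest of the 6, and it lay between the LSD1skm-/- values for *H4c9*. *H3c15* measured 2.17, 1.75 and 1.63 CPM, then 0.751 CPM, then 0.587 and 0.662 CPM, the last pair from 18 and 25 reads. The mean of the LSD1skm-/- libraries was 5.22-fold lower than that of Ctrl replicates 1 to 3 for *H1f4*, 3.63-fold for *H4c9*, 3.36-fold for *H2bc6* and 2.96-fold for *H3c15*. *H1f4* and *H2bc6* overlap on the minus strand of chromosome 13, and a pseudogene, *Gm11398*, lies there too. How much of either count came from the shared stretch was not measured, so the levels of this pair are uncertain.

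Other histone genes showed how far the pattern went. Of the 40 clustered histone genes in the table, 10 reached 1 CPM in each of Ctrl replicates 1 to 3. For 8 of these 10 both LSD1skm-/- libraries lay below every one of Ctrl replicates 1 to 3, and the library labelled Ctrl replicate 4 lay below them for 8 too, where 10.9% and 16.5% of the 11264 genes did so. TMM scaling gave 9 and 10, against 19.4% and 33.7%. The 8 include the chosen *H1f4*, *H2bc6*, *H3c15* and *H4c9*, so the count is partly set by the rule. *H4c8* fell just outside the rule, with 4.43, 3.16 and 4.34 CPM in Ctrl replicates 1 to 3, 0.824 CPM in the library labelled Ctrl replicate 4, and 1.01 and 1.59 CPM in the LSD1skm-/- libraries. *H1f2* overlapped between the groups, with 131, 154 and 116 CPM in Ctrl replicates 1 to 3, 119.7 CPM in the library labelled Ctrl replicate 4, and 109.9 and 118 CPM in LSD1skm-/- muscle. *H2bc4* did as well, with 42.0 to 49.2 CPM in Ctrl replicates 1 to 3 and 37.4 and 45.5 CPM in LSD1skm-/- muscle. Of 8 histone genes outside the clusters at this level, both LSD1skm-/- libraries lay below for 3 and above for 1 under CPM (10.9% and 26.3% of all genes) and under TMM scaling (19.4% and 18.2%). Among 15 genes of S phase and histone transcript processing, a list also written afterwards, both lay below for 1 and above for 6, and TMM scaling gave 3 and 5, beside the same shares of all genes. *Slbp*, which encodes the protein that binds the stem-loop, measured 3.11, 3.83 and 2.87 CPM, then 4.26 CPM, then 4.53 and 4.37 CPM. *Mki67*, a marker of dividing cells, measured 1.32, 1.01 and 0.276 CPM, then 1.24 CPM, then 0.522 and 0.873 CPM, with overlap between the groups.

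**Figure D4:**
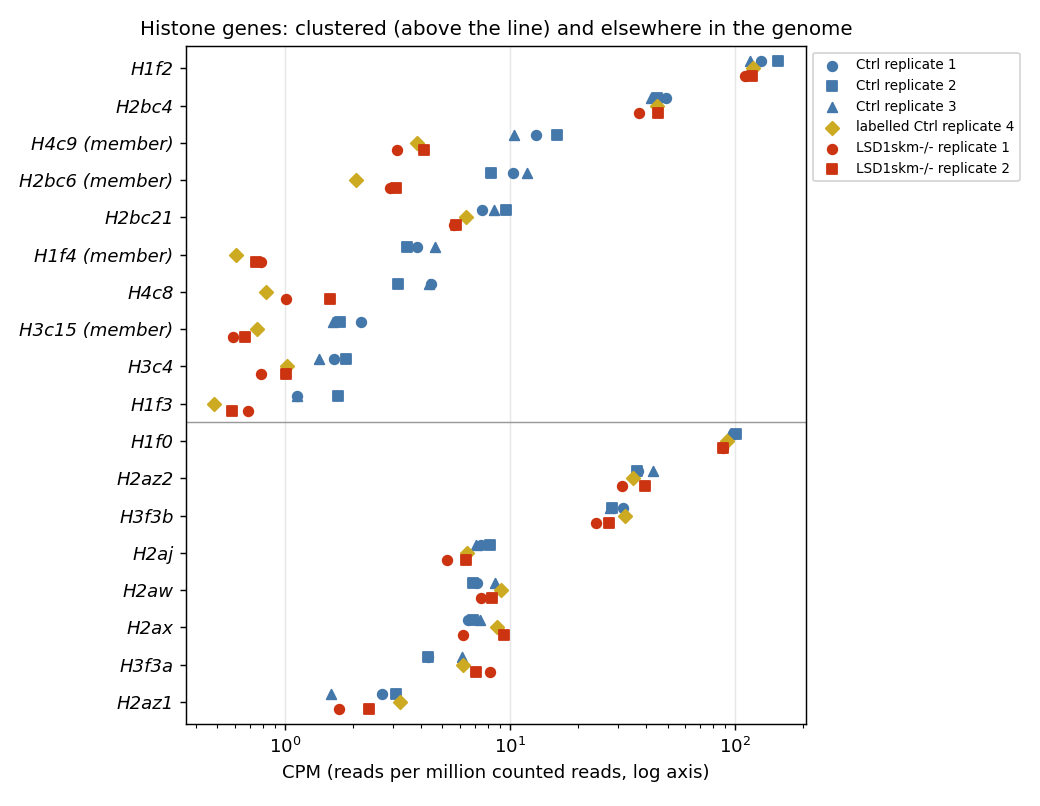
CPM per library on a log axis for histone genes at 1 CPM or more in Ctrl replicates 1 to 3, with genes of the clusters above the line and genes elsewhere below it. Blue is Ctrl replicates 1 to 3, yellow the library labelled Ctrl replicate 4 and red the LSD1skm-/- replicates. The chosen *H4c9*, *H2bc6*, *H1f4* and *H3c15*, and also *H4c8*, show a gap between blue and the rest, which *H1f2*, *H2bc4* and *H1f0* lack or show weakly.

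Promoter sequences of the histone genes are shown because these genes were low together. They are from RefSeq on GRCm38.p6, 5' to 3' on the strand of the gene, from 250 bases before to 50 after the start, and 15 of the 20 genes had one. Capitals mark matches on either strand to TATAAA or CCAAT, the core and proximal elements common in histone promoters. The *H4c9* window is chr13:22041313-22041612, the *H1f4* window chr13:23622509-23622808, that of *H2bc6* chr13:23621045-23621344 and that of *H3c15* chr3:96239078-96239377, all on the minus strand.
H4c9: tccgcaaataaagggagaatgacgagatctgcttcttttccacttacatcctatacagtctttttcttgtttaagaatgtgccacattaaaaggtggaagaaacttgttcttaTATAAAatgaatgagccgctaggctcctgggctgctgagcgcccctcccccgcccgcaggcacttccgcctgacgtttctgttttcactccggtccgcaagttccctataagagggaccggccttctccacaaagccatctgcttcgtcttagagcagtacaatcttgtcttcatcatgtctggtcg
H1f4: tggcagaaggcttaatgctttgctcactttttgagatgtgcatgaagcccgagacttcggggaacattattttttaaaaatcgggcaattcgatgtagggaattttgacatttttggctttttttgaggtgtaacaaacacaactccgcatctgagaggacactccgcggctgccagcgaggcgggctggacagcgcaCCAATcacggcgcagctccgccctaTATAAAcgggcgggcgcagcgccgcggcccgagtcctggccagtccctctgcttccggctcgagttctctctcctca
H2bc6: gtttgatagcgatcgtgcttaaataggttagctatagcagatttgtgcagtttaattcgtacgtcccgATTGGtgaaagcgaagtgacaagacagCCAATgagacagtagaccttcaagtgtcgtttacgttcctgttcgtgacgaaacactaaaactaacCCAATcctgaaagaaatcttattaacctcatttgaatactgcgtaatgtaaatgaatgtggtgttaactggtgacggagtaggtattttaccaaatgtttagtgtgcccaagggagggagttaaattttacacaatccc
H3c15: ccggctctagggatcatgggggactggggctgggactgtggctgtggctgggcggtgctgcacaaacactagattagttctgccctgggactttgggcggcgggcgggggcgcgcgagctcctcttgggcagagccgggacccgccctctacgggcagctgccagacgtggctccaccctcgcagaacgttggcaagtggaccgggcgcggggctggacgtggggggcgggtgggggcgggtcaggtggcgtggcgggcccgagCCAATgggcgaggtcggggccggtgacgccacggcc
*H1f4* had TATAAA 27 bases before its start and CCAAT 52 bases before it, and *H2bc6* had 3 matches to CCAAT. The *H2bc6* window shown lies within the annotated *H1f4* gene (23620629 to 23622558), and *H2bc6* has another promoter sequence that is not shown. *H4c9* had TATAAA 137 bases before the start, and *H3c15* had CCAAT after the start. TATAAA was in promoters of 5 of the 15 genes (*4931413K12Rik*, *Amy1*, *Fgfbp1*, *H1f4* and *H4c9*) and of 15.7% of all 27025 genes with a sequence. CCAAT was in promoters of 6 of the 15 (*Chac1*, *Fgfbp1*, *Gng7*, *H1f4*, *H2bc6* and *H3c15*) and of 41.1% of all genes. Among 34 clustered histone genes with a sequence, 64.7% had TATAAA and 85.3% had CCAAT. A match describes the letters and is no evidence of a bound factor.

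The promoters of *Chac1* and *Odc1* are shown because both genes serve amino acid metabolism and had values of the same order. Besides the motifs above, both strands were searched for CACGTG (the E-box), TGACGTCA (the cyclic AMP element) and ATTTGCAT (the octamer). TGATGNAAT (1 form of the composite element of ATF4 targets) and the NRF1, MEF2 and glucocorticoid receptor consensus sequences were searched too. Capitals mark every match. The *Chac1* window is chr2:119350992-119351291 and that of *Odc1* chr12:17544623-17544922, both on the plus strand.
Chac1: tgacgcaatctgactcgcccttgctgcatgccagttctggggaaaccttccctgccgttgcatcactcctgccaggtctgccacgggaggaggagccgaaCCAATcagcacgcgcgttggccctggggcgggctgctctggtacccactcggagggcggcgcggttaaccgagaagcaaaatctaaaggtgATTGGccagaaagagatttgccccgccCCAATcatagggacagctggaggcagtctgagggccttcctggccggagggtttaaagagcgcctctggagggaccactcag
Odc1: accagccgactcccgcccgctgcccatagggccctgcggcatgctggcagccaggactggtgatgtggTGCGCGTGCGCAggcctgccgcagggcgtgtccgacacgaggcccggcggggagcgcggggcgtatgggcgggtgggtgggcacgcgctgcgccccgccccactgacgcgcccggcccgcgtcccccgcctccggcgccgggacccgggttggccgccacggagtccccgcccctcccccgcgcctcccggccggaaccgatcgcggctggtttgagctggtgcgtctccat
*Chac1* had 3 matches to CCAAT and none to TGATGNAAT. This was the only form of the ATF4 element searched, so close variants of it were not counted. *Odc1* had 1 match to the NRF1 consensus, 182 bases before the start, and was the 1 gene of the 15 with this match, which 1.41% of all genes had. CACGTG was in promoters of *Gng7*, *Ogdhl* and *Tma16*, against 8.09% of all genes. ATTTGCAT was in the promoter of *H2bc6* that is not shown, against 1.97% of all genes and 20.6% of the clustered histone genes with a sequence. TGACGTCA, TGATGNAAT, the MEF2 consensus and the glucocorticoid receptor consensus had 0 matches in the 15, against 2.03%, 1.08%, 2.16% and 0.0111% of all genes. An absent match says only that these letters are not in these windows.

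*Ostn* encodes musclin, a peptide that muscle secretes and that binds the natriuretic peptide clearance receptor. It measured 31.5, 45.4 and 11.3 CPM in Ctrl replicates 1 to 3, 4.31 CPM in the library labelled Ctrl replicate 4, and 2.41 and 3.68 CPM in LSD1skm-/- replicates 1 and 2. The Ctrl libraries differed among themselves, the highest being 4.01 times the lowest, and the mean of the LSD1skm-/- libraries was 9.65-fold lower than theirs. *Npr3*, the clearance receptor, overlapped between the groups, with 5.34, 6.50 and 7.76 CPM in Ctrl replicates 1 to 3, 7.46 CPM in the library labelled Ctrl replicate 4, and 5.97 and 6.99 CPM in the LSD1skm-/- libraries.

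*Fgfbp1* encodes a carrier that frees fibroblast growth factors from the extracellular matrix. Its values were 5.36, 6.53 and 8.89 CPM in Ctrl replicates 1 to 3, 1.28 CPM in the library labelled Ctrl replicate 4, and 0.685 and 1.24 CPM in the LSD1skm-/- libraries. LSD1skm-/- replicate 2 was close to the library labelled Ctrl replicate 4, and the LSD1skm-/- mean was 7.18-fold lower than that of Ctrl replicates 1 to 3. The fibroblast growth factor genes *Fgf1* and *Fgf2* did not share this order: *Fgf1* measured 40.9, 33.8 and 40.95 CPM, then 40.9 CPM, then 53.4 and 40.0 CPM. *Fgf2* measured 6.90, 6.16 and 10.5 CPM, then 7.41 CPM, then 10.1 and 10.4 CPM. *Fgf7*, another fibroblast growth factor, was lower in both LSD1skm-/- libraries than in Ctrl replicates 1 to 3, with 2.23, 2.15 and 1.66 CPM, then 2.01 CPM, then 1.47 and 1.51 CPM.

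*Cd28* encodes a receptor that costimulates T cells. It measured 6.00, 7.24 and 5.03 CPM in Ctrl replicates 1 to 3, 0.654 CPM in the library labelled Ctrl replicate 4, and 0.457 and 0.635 CPM in LSD1skm-/- replicates 1 and 2. The highest LSD1skm-/- value was 0.126 times the lowest Ctrl value, the lowest such ratio of the 20 genes. The fold between the means was 11.1.

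T cell genes as a sum were low in the libraries with low *Cd28*, and low in Ctrl replicate 3 as well. A list of 16 such genes, written after *Cd28* was known, summed to 12.4 and 9.50 CPM in Ctrl replicates 1 and 2, 1.57 CPM in Ctrl replicate 3, 2.76 CPM in the library labelled Ctrl replicate 4, and 1.60 and 1.22 CPM in the LSD1skm-/- libraries. Its most abundant gene was *Trbc2* in Ctrl replicate 1, and *Cd2* and *Lck* tied at 1.20 CPM in Ctrl replicate 2. In the other libraries it was *Cd247*. Ctrl replicate 3 had a T cell sum like that of the LSD1skm-/- libraries, and its *Cd28* was 5.03 CPM. In that library *Cd3d*, *Cd3e*, *Cd3g*, *Cd6* and *Cd8a* had 0 reads. *Cd3d*, *Cd6* and *Cd8a* had 0 reads in the library labelled Ctrl replicate 4 too, and 8 and 7 of the 16 genes had 0 reads in LSD1skm-/- replicates 1 and 2. In bulk muscle, fewer cells of a type and less RNA per cell cannot be told apart. The 21 genes of the immune list summed to 362 and 335 CPM in Ctrl replicates 1 and 2, 134 CPM in Ctrl replicate 3, 214 CPM in the library labelled Ctrl replicate 4, and 231 and 278 CPM in the LSD1skm-/- libraries. *Ighm* was its most abundant gene except in the library labelled Ctrl replicate 4 and LSD1skm-/- replicate 2, where *Cd74* was. The part of such cells in the level of *Cd28* was not tested.

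*Sorcs1* encodes a sorting receptor that carries membrane proteins between compartments. It measured 2.06, 2.18 and 2.15 CPM in Ctrl replicates 1 to 3, 0.703 CPM in the library labelled Ctrl replicate 4, and 0.228 and 0.370 CPM in the LSD1skm-/- libraries, from 7 and 14 reads. The Ctrl values hardly differed, the highest being 1.06 times the lowest. *Sorcs2*, a relative, was not lower, with 1.60, 1.66 and 1.52 CPM, then 3.10 CPM, then 3.36 and 2.38 CPM.

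*Npy1r* encodes a receptor of neuropeptide Y, which sympathetic nerves release. Its values were 2.17, 1.75 and 3.65 CPM in Ctrl replicates 1 to 3, 1.72 CPM in the library labelled Ctrl replicate 4, and 0.652 and 0.873 CPM in the LSD1skm-/- libraries. Here the library labelled Ctrl replicate 4 was close to Ctrl replicate 2 and above both LSD1skm-/- libraries. *Gng7* encodes a gamma subunit of heterotrimeric G proteins. It measured 1.29, 1.44 and 1.49 CPM in Ctrl replicates 1 to 3, 0.509 CPM in the library labelled Ctrl replicate 4, and 0.489 and 0.582 CPM in the LSD1skm-/- libraries. Its LSD1skm-/- values rested on 15 and 22 reads, with the library labelled Ctrl replicate 4 between them. *Gng5*, another gamma subunit, overlapped between the groups, with 41.9, 43.5 and 43.7 CPM, then 44.0 CPM, then 42.3 and 44.6 CPM.

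*Tma16* encodes a protein that associates with ribosomes in the making. It measured 8.58, 8.98 and 9.03 CPM in Ctrl replicates 1 to 3, 4.48 CPM in the library labelled Ctrl replicate 4, and 3.95 and 3.86 CPM in the LSD1skm-/- libraries. Values within each group were tight, the Ctrl mean being 8.86 ± 0.246 CPM (SD, n = 3), and the fold between the means was 2.27. *Tma16* and *Npy1r* lie 210.7 kb apart on opposite strands of chromosome 8, and *Slc7a2* and *Htra4* lie elsewhere on the same chromosome.

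*1700001O22Rik*, a protein-coding gene without an established role, measured 28.5, 26.7 and 10.9 CPM in Ctrl replicates 1 to 3, 1.91 CPM in the library labelled Ctrl replicate 4, and 2.67 and 1.59 CPM in the LSD1skm-/- libraries. As for *Ostn*, the lowest of Ctrl replicates 1 to 3 was replicate 3, and the fold between the means, 10.3, was carried by a Ctrl group whose highest value was 2.62 times its lowest. The library labelled Ctrl replicate 4 lay between the LSD1skm-/- values. Its measured neighbors *Ntmt1* and *Asb6* did not share the pattern: *Ntmt1* measured 18.9, 14.3 and 12.0 CPM, then 12.9 CPM, then 12.2 and 11.3 CPM. *Asb6* measured 6.49, 6.87 and 7.59 CPM, then 7.68 CPM, then 8.55 and 9.02 CPM.

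*4931413K12Rik* is a noncoding transcript antisense to *Pitpna*. It measured 1.07, 1.66 and 1.05 CPM in Ctrl replicates 1 to 3, 0.291 CPM in the library labelled Ctrl replicate 4, and 0.391 and 0.185 CPM in the LSD1skm-/- libraries, from 12 and 7 reads. The kit keeps strand, but the sources do not say whether the counting used it, so reads of *Pitpna* cannot be kept apart with certainty. *Pitpna* itself was not lower, with 184, 196 and 178 CPM in Ctrl replicates 1 to 3, 259 CPM in the library labelled Ctrl replicate 4, and 245 and 254 CPM in LSD1skm-/- muscle.

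*Gm27028* is a noncoding gene of chromosome 1 (23291537 to 23291935 on GRCm38) that holds the hairpin of *Mir30c-2*. It measured 1.46, 1.56 and 1.49 CPM in Ctrl replicates 1 to 3, 1.07 CPM in the library labelled Ctrl replicate 4, and 0.685 and 0.529 CPM in the LSD1skm-/- libraries. Here the library labelled Ctrl replicate 4 lay midway between the groups. These reads are of poly(A) RNA and do not measure the mature miRNA, whose RefSeq sequence is given to identify the locus, with the seed (bases 2 to 8) in capitals.
mmu-miR-30c-5p: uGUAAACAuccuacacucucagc

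The limit of the rule cut through a continuous range. Just inside it were *Npy1r*, *Amy1* and *Slc7a2*, with ratios of the highest LSD1skm-/- to the lowest Ctrl value of 0.4997, 0.495 and 0.475. Just outside were *H4c8* at 0.503, *Sbk2* at 0.522 and *Gdf11* at 0.526. *Sbk2*, a kinase gene, measured 74.1, 93.0 and 67.9 CPM in Ctrl replicates 1 to 3, 32.0 CPM in the library labelled Ctrl replicate 4, and 35.5 and 29.8 CPM in the LSD1skm-/- libraries. *Gdf11*, a relative of myostatin, measured 10.45, 13.03 and 9.66 CPM, then 8.33 CPM, then 3.85 and 5.08 CPM. Thus the library labelled Ctrl replicate 4 sat with the LSD1skm-/- libraries for *Sbk2* and nearer to Ctrl replicates 1 to 3 for *Gdf11*.

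The 20 genes lie on 12 chromosomes. Within 100 kb of them, 43 other genes were at 1 CPM or more in Ctrl replicates 1 to 3, and both LSD1skm-/- libraries lay below every one of these Ctrl values for 11, or 25.6%, against 10.9% of the 11264 genes. Under TMM scaling this held for 14 of the 43, or 32.6%, against 19.4%. The neighbors of *H1f4* and *H2bc6* gave *H3c4*, *H1f3* and *H4c8* to this count, and *H2bc21*, beside *H3c15*, was a further clustered histone gene in it. The count asks for no fold, and some gaps were small. The ratio of the highest LSD1skm-/- to the lowest Ctrl value was 0.993 for *Tm2d2* and 0.980 for *Inpp5k*, against 0.503 for *H4c8*. *Ccdc50*, beside *Ostn*, measured 109, 187 and 117 CPM in Ctrl replicates 1 to 3, 65.6 CPM in the library labelled Ctrl replicate 4, and 96.6 and 52.8 CPM in LSD1skm-/- muscle. *Gm5345*, beside *Slc7a2*, measured 2.94, 2.27 and 2.57 CPM, then 1.67 CPM, then 1.83 and 1.75 CPM. The difference between these shares was not tested.

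Other genes shared the level of the 20 in the library outside the rule. Besides the 13 chosen genes, 14 of the 11264 were at most 0.5 times the lowest of Ctrl replicates 1 to 3 in the library labelled Ctrl replicate 4. *Kdm1a* and *Mss51* were dropped by name, and for 7 of the other 12 both LSD1skm-/- libraries also lay below Ctrl replicates 1 to 3, against 10.9% of the 11264 genes. The 12 were found by comparison with the same lowest Ctrl value, so this count is partly set by how they were found. *Tbc1d1*, a regulator of glucose transporter traffic picked here after its values were seen, measured 156, 126 and 189 CPM in Ctrl replicates 1 to 3, 55.9 CPM in the library labelled Ctrl replicate 4, and 72.8 and 74.3 CPM in the LSD1skm-/- libraries. *Mss51*, a mitochondrial protein gene of fast muscle, measured 96.5, 82.6 and 109.8 CPM, then 8.94 CPM, then 4.76 and 6.30 CPM. *Myh7*, the slow myosin gene dropped by name, did not behave in this way, with 235, 241 and 486 CPM in Ctrl replicates 1 to 3, 235 CPM in the library labelled Ctrl replicate 4, and 36.6 and 86.1 CPM in the LSD1skm-/- libraries. *Tpm3*, also dropped, measured 109, 107 and 186 CPM, then 131 CPM, then 25.8 and 52.1 CPM.

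Levels of other cell and fiber types moved between these libraries, and they did not all move with the 20 genes. The 20 genes summed to 532, 608 and 519 CPM in Ctrl replicates 1 to 3, 208 CPM in the library labelled Ctrl replicate 4, and 189 and 168 CPM in the LSD1skm-/- libraries. *Slc7a2*, *Odc1* and *Chac1* were the most abundant of them in every library and made up most of this sum. The 9 slow-twitch genes the rule drops summed to 1289, 1136 and 2163 CPM, then 1395 CPM, then 485 and 845 CPM, with none at 0. *Myh7* was the most abundant of them in Ctrl replicates 1 to 3, *Atp2a2* in the library labelled Ctrl replicate 4 and *Myl3* in both LSD1skm-/- libraries. The 9 adipocyte genes it drops summed to 2651, 2476 and 3880 CPM, then 1764 CPM, then 1143 and 1274 CPM, led by *Car3*, with none at 0. *Car3* made up most of this sum, and the other 8 adipocyte genes summed to 343, 314 and 170.2 CPM, then 535 CPM, then 186 and 190.5 CPM. Without *Car3* the library labelled Ctrl replicate 4 was thus the highest and Ctrl replicate 3 the lowest of the 6. *Fabp4* led that sum, with 241, 207 and 158 CPM, then 375 CPM, then 169 and 168 CPM. *Adipoq* differed more, with 12.2, 9.66 and 0.746 CPM, then 20.7 CPM, then 0.130 and 0.556 CPM. *Cfd*, *Retn*, *Plin1* and *Cidec* were likewise far lower in Ctrl replicate 3 and both LSD1skm-/- libraries, whereas *Pparg* and *Cebpa* did not share this. In the library labelled Ctrl replicate 4 the slow-twitch sum stayed within the range of Ctrl replicates 1 to 3, whereas that of the 20 genes lay below it. The 18 genes of fibroblasts and matrix summed to 1287, 1189 and 1274 CPM, then 1569 CPM, then 1583 and 1740 CPM, led by *Gsn*, and blood genes to 41.8, 28.2 and 35.4 CPM, then 55.9 CPM, then 67.0 and 66.2 CPM, led by *Hbb-bs*. The part of these differences in the levels of the 20 genes was not tested. Over the 23 lists set with the design, 301 genes were tested with edgeR's quasi-likelihood test. With all 6 libraries 0 were lower and 0 higher at an adjusted p under 0.05, where 36 (12.0%) and 20 (6.64%) had an unadjusted p under 0.05, against 3.88% and 5.02% of all 11364 genes. DESeq2 called 8 lower and 0 higher, and over all genes 0.246% and 0.158%. Without the library labelled Ctrl replicate 4, 6 were lower (*Myh7*, *Tpm3*, *Car3*, *Eya1*, *Eya4* and *Flnc*) and 12 were higher by the same adjusted test, against 1.02% and 4.36% of all genes.

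**Figure D5:**
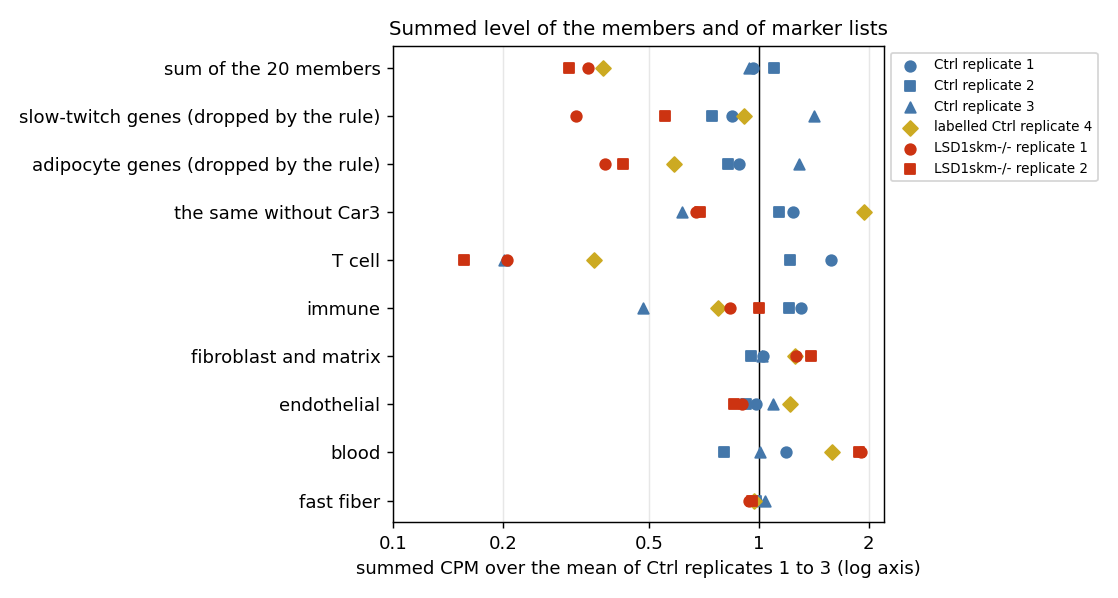
Summed CPM of the 20 genes and of marker lists in each library, over the mean of Ctrl replicates 1 to 3, on a log axis, with the adipocyte genes shown with and without *Car3*. Blue is Ctrl replicates 1 to 3, yellow the library labelled Ctrl replicate 4 and red the LSD1skm-/- replicates. For the sum of the 20 genes, mostly *Slc7a2*, *Odc1* and *Chac1*, the yellow symbol lies at 0.376, near the red ones. For the slow-twitch genes it lies at 0.912, among the blue ones.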

How the data were processed

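The authors sequenced poly(A)-selected libraries made with a kit that keeps strand, mapped single-end reads to mm10, kept uniquely aligned reads and deposited raw counts of reads per gene, not normalized. Their methods name htseq-count and HOMER, and the labels name bcl2fastq 2.20.0.422. CPM was the count times 1000000 over the sum of its library. The edgeR 4.0.16 test (R 4.3.3, TMM, quasi-likelihood, Benjamini-Hochberg adjustment) compared the groups without other terms on the 11364 genes whose counts averaged above 50 across the 6 libraries, and DESeq2 1.42.0 was the alternative. Its p-values measure spread between libraries, which the labels do not call separate animals. The members and lists were chosen with earlier results of these data known. The lists of arginine and polyamine, amino acid stress and glutathione, T cell, S phase, histone and related genes were written after the members were known. The rule for named genes took members by their ratio of LSD1skm-/- to Ctrl values, their mean in Ctrl replicates 1 to 3, and their ratio in the library labelled Ctrl replicate 4, with genes on both sides of the limit and genes dropped by name. Every other gene named, among them neighbors and genes of the later lists, was chosen after its values were seen. Each pair of libraries differed by more than read sampling gives, with chi-square values over degrees of freedom between 32.9 and 127. Low counts limit precision for the 6 members whose counts averaged 50 or less. Positions are from GENCODE vM21 on GRCm38. Alternatives covered scaling, limits, filters, tools, a replicate block and each library left out.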

Additional observations from a re-analysis of the deposited data

Results flagged for a closer look

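Among 56 groups of 4 Ctrl values (log2 CPM of the members, of genes dropped by name or just outside the limit, and of list sums), 10 had a library whose gap to its nearest neighbor, as a share of the range, passed the Dixon limit. The rule used Ctrl replicates 1 to 3 to choose most of these genes, so the usual chance rate of this limit does not apply to them. In 8 of the 10 this was the library labelled Ctrl replicate 4, where *Kdm1a* went against the label. It was the low value for the members *Cd28* (gap 0.848), *Gng7* (0.867), *H1f4* (0.859), *Slc7a2* (0.889), *Sorcs1* (0.953) and *Tma16* (0.927). It was also low for *Kdm1a* (0.895) and *Mss51* (0.887), which the rule drops by name. Ctrl replicate 3 was the high value for *Myh7* (0.965) and for the summed level of the fast fiber list (0.85).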

How the results depend on the processing

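The number of genes that met the rule, 20, was 11 with a lowest level of 5 CPM, 10 with a ratio of at most 0.4, 41 with a ratio of at most 0.6, 73 when group means were compared, and 1 when the library labelled Ctrl replicate 4 was counted among the Ctrl libraries. Leaving out 1 library at a time gave 27 to 137 genes, the highest without Ctrl replicate 3. TMM and DESeq2 scaling gave 25 each. The genes at most 0.5 times the lowest Ctrl value in the library labelled Ctrl replicate 4, 13 as reported, numbered 8 with 5 CPM, 21 with group means, and 15 to 97 with 1 library left out, the highest again without Ctrl replicate 3. Those below the lowest Ctrl value there, 20 as reported, numbered 11 with 5 CPM, 10 and 41 with ratios of 0.4 and 0.6, 50 with group means, and 27 to 119 with 1 library left out, the highest without Ctrl replicate 3. These alternatives change which genes are taken. With the same 20 members kept, an alternative added after the data were seen, TMM and DESeq2 scaling gave 15 and 20, and scaling without the 20 most abundant genes gave 14 and 20. Of the 14 members tested, 13 had an unadjusted p under 0.05 with a fold below 0.77. This count was 14 with DESeq2 and with the replicate block, and 20 without the filter on counts, where all 20 were tested. With DESeq2, 4.64% of all genes were lower at an unadjusted p under 0.05, before the limit on the fold. Leaving out 1 Ctrl library at a time gave 11 to 14. Without LSD1skm-/- replicate 1 or 2, 1 LSD1skm-/- library remained and the spread came from the Ctrl libraries alone, so no count is given. The count at an adjusted p under 0.05, 0 as reported, was 5 with DESeq2, 13 without the filter and 14 with the replicate block. It was 0 to 14 with 1 Ctrl library left out, 14 only without the library labelled Ctrl replicate 4. Of all genes, 0.246% were lower with DESeq2 and 1.02% without that library. The shares without the filter and with the block are not given here, so those counts show nothing particular to the members. The block pairs libraries that share only a number, and 2 numbers occur in both groups. Its fold changes rest on replicates 1 and 2 of each group, which the rule used. The calls with the block therefore follow from the choice of the genes too. The 182 log2 fold changes of members ran from -3.79 to -0.94, and their sign was set by the choice of the members, so it is no sign of stability. Limits are 2 LSD1skm-/- libraries, a Ctrl library whose *Kdm1a* goes against its label, low counts of 6 members, and overlapping or nearly identical genes.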
